A study of Homo sapiens with 6 samples.

Results

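RNA-seq counts were examined for 9 genes of iron uptake, iron storage and haem breakdown in BLaER1-CTCF-mAID cells. The genes were taken by symbol from the count table, which lists 30017 genes by symbol, and all 9 were found: *TFRC*, *SLC11A1*, *FTH1*, *FTL*, *NCOA4*, *HMOX1*, *SLC40A1*, *FBXL5* and *IREB2*. Of these, 8 had enough counts to be tested among 14758 genes, and *SLC40A1* did not. The cells are a subclone of a human B cell leukemia line that is turned into induced macrophages through the transcription factor C/EBPα, and their CTCF is fused to an auxin-inducible degron. The 6 libraries comprise 2 biological replicates each of cells at 0 h, which received neither factors nor auxin, of cells 96 h after the transdifferentiation factors were added (96 h control), and of cells at 96 h that received 500 µM of the auxin indole-3-acetic acid (IAA) along with those factors (96 h CTCF-depleted). All libraries therefore carry the degron. The transdifferentiation factors were estradiol, IL-3 and CSF-1. Cells without the degron that received IAA were not analysed here, so that effects of IAA and of CTCF loss cannot be told apart. The methods of the study also describe a change to fresh medium with factors and IAA during the culture of the depleted cells. None is stated for control cells, so that an effect of that change cannot be told apart either. All libraries come from 1 subclone of 1 line.

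Cells take up iron bound to transferrin through the transferrin receptor (*TFRC*), keep it in a shell of ferritin heavy (*FTH1*) and light (*FTL*) chains, and release it again when *NCOA4* carries ferritin to the lysosome. Macrophages also recover iron from engulfed red cells, in which haem oxygenase 1 (*HMOX1*) opens the haem ring, *SLC11A1* (NRAMP1) moves iron out of the phagosome and ferroportin (*SLC40A1*) exports it from the cell. Iron regulatory proteins, which include the product of *IREB2* (IRP2), bind hairpins in messenger RNA when iron is scarce: they block translation from a hairpin in the 5′ untranslated region (UTR) and protect the transcript from decay through hairpins in the 3′ UTR. *FBXL5* is the iron-sensing part of the ligase that marks IRP2 for degradation.

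The hairpins (iron-responsive elements, IREs) are shown because they mark which of the 9 transcripts are known to be read by these proteins. Transcripts of GENCODE release 44 on hg38 were searched for the loop CAGTGN with 5 paired bases on each side and an unpaired C 5 bases before the loop. Matches were found in 4 of the 9 genes, against 1.54% of 19676 coding genes. The 9 genes were chosen as iron genes, so that this is a description and not a test. The share over coding genes was counted without requiring the flanks to lie within an exon, which was required for the 9 genes. *FTH1* (chr11:61967574-61967602, minus strand), *FTL* (chr19:48965335-48965363, plus strand) and *SLC40A1* (chr2:189580661-189580689, minus strand) each held 1 match in the 5′ UTR. *TFRC* held 4 in the 3′ UTR, all on the minus strand, at chr3:196050979-196051007, chr3:196050575-196050603, chr3:196050510-196050538 and chr3:196050463-196050491, and these are named a to d in the order of the transcript. An element with another loop or a stem that is not fully paired would be missed, so that the 4 need not be all IREs of *TFRC*. The letters are used here only. The matched stretches of *FTL*, *SLC40A1* and *TFRC* are written 5′ to 3′ with the loop motif in capitals.
FTL: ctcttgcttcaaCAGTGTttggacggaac
SLC40A1: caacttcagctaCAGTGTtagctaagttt
TFRC a: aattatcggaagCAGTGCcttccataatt
TFRC b: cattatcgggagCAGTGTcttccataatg
TFRC c: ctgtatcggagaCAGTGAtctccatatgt
TFRC d: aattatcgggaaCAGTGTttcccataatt
No match was found in *HMOX1*, *SLC11A1*, *NCOA4*, *FBXL5* or *IREB2*. This says only that no stretch with this loop and paired stem lies, with its flanks, within an exon of their annotated coding transcripts. The RNA counts measure how much transcript is present and not how much protein is made from it.

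Total counts ranged from 9273470 to 12718780 per library, and replicates differed by more than sampling noise. Counts are given as CPM, which is counts per 1000000 counts of the library after scaling for its composition, and a gene was called higher or lower where its log2 fold change was beyond 0.6 in size and its adjusted p under 0.01 in edgeR's quasi-likelihood test with Benjamini-Hochberg adjustment over all genes tested. Groups of 2 libraries allow no two-sided permutation p under 0.333 for 1 gene, and edgeR's p-values draw on a spread that is shared across genes. *CTCF* RNA had 2048 and 1875 counts in the control and 2062 and 2051 after depletion; the degron acts on the protein, so that these counts do not check the depletion. All 12 B cell markers were called lower and all 12 macrophage markers higher at 96 h in both control and depleted libraries, and 10 of 12 erythroid markers, among them the haemoglobin genes *HBA1*, *HBA2* and *HBB*, had no more than 3 counts in any library. Of 7 granulocyte markers, 6 were also called higher in both 96 h groups, from 1.44 to 1.95 CPM in sum at 0 h to 127.3 CPM in control cells, as were 2 of 7 T and NK cell markers, from 2.68 to 2.93 CPM at 0 h to 38.3 to 38.6 CPM in control cells; the part of these cell type markers in the differences between 96 h and 0 h was not tested. In RNA from whole cultures, fewer cells of a type and less RNA per cell cannot be told apart.

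Between genes, levels were compared as CPM per kilobase of the canonical transcript. At 0 h, *FTL* was highest among the 9 genes with 405.7 ± 36.5 CPM per kilobase (SD, n = 2), ahead of *FTH1* with 194.2 ± 17.5, *TFRC* with 60.2 ± 1.00, *NCOA4* with 37.7 ± 1.61, *IREB2* with 31.8 ± 0.537 and *FBXL5* with 14.4 ± 1.25. *SLC11A1* and *HMOX1* were below 1 CPM per kilobase. In 96 h control cells, *FTH1* led with 1871 ± 1.47 CPM per kilobase, before *FTL* with 763 ± 19.0 and *NCOA4* with 446.9 ± 4.52, followed by *FBXL5* with 58.2 ± 0.770, *TFRC* with 47.2 ± 3.48, *HMOX1* with 32.7 ± 1.52, *IREB2* with 31.9 ± 1.12 and *SLC11A1* with 5.23 ± 0.444. *HMOX1* and *IREB2*, neighbours in this order, differed by less than their spread. In CTCF-depleted cells the order of the first 4 genes was the same, and *IREB2* (29.7 ± 0.172 CPM per kilobase) and *TFRC* (29.2 ± 1.47) differed by less than their spread, ahead of *HMOX1* with 12.8 ± 0.248 and *SLC11A1* with 3.01 ± 0.0434.

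**Figure D1:**
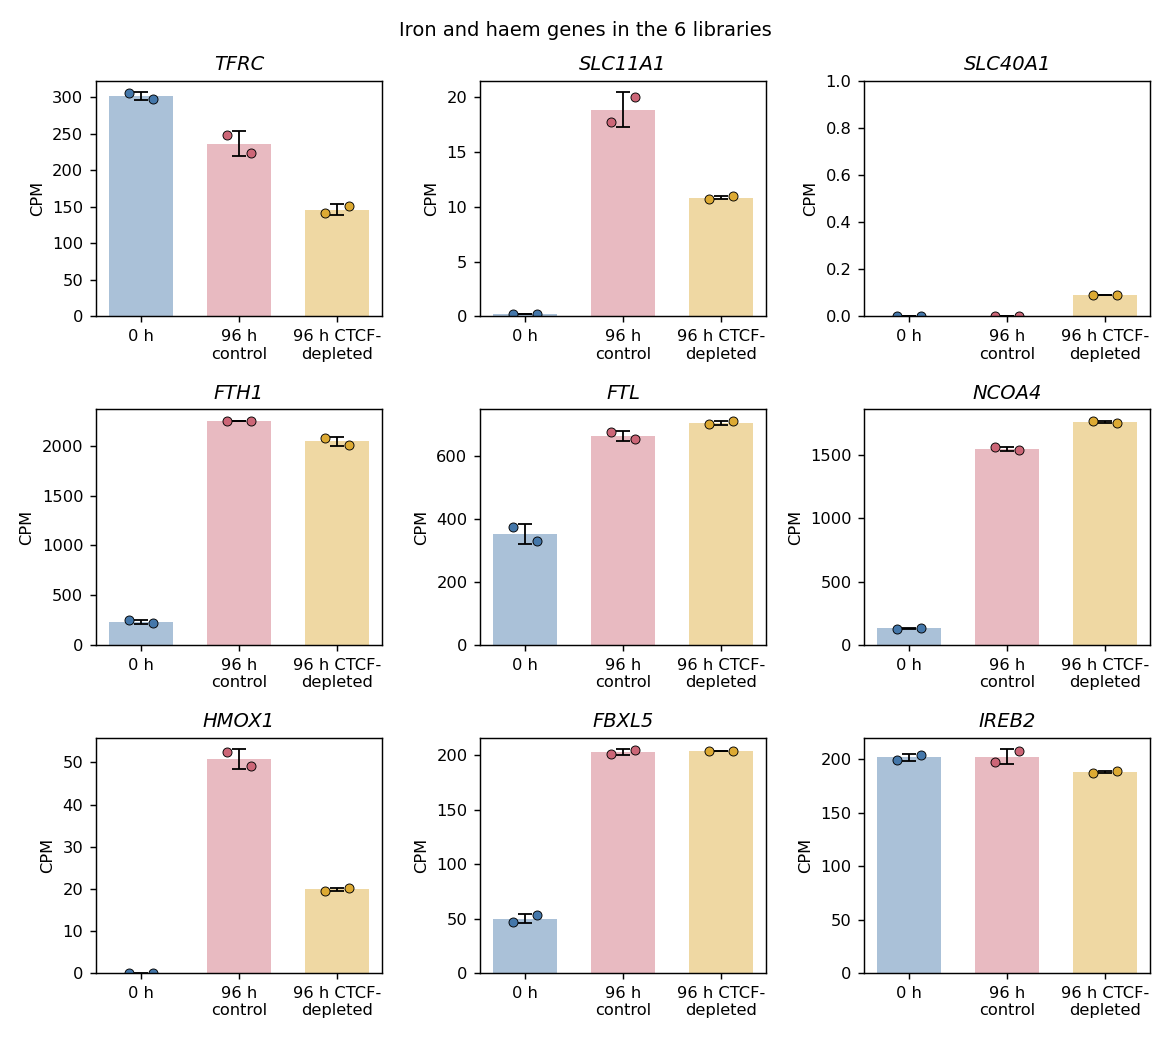
Level of each of the 9 genes in CPM on a linear axis that starts at 0, with a scale of its own in each panel. Points are libraries, bars are means and error bars are SDs (n = 2) for 0 h, 96 h control and 96 h CTCF-depleted cells; *FTH1*, *NCOA4*, *HMOX1* and *SLC11A1* are far above 0 h in both 96 h groups, and *TFRC*, *HMOX1* and *SLC11A1* are lower in CTCF-depleted than in control cells.

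The first comparison, 96 h control against 0 h, asks how the genes differ between the leukemic B cells and the induced macrophages. Of the 8 genes tested, 6 were called higher, where 25.4% of all genes tested were called higher. These were both ferritin chains, the ferritin receptor *NCOA4*, *FBXL5*, *HMOX1* and *SLC11A1*. None was called lower, where 22.9% of all genes were; DESeq2 also called 0 lower, and at an unadjusted p below 0.05 without a fold threshold 1 gene, *TFRC*, was lower. The median log2 fold change of all genes tested was 0.02. *HMOX1* and *SLC11A1* passed the filter on low counts only through their levels at 96 h.

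For uptake, *TFRC* (chromosome 3, 196012511 to 196082153, minus strand, hg38) had 2960 and 3976 counts at 0 h and 2819 and 2420 counts in control cells at 96 h. This corresponds to 301.8 ± 5.03 and 236.5 ± 17.5 CPM, and the groups did not overlap. The log2 fold change was -0.35 with a standard error of 0.05 (edgeR adjusted p = 8.05e-09), which is below the fold threshold. *SLC11A1*, the phagosomal transporter (chromosome 2, 218382029 to 218396894, plus strand), had 2 and 3 counts at 0 h and 201 and 216 counts in control cells. Its CPM was 86.8 times that at 0 h, with an exact 95% interval of 36.9 to 268.7 that covers counting error only, and the gene was called higher (edgeR adjusted p = 2.07e-26).

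For storage, *FTH1* (chromosome 11, 61959718 to 61967634, minus strand) had 2409 and 2916 counts at 0 h and 25522 and 24296 counts in control cells. These are 233.6 ± 21.1 and 2251 ± 1.77 CPM, which gives a log2 fold change of 3.27 with a standard error of 0.05 (edgeR adjusted p = 2.59e-49). *FTL* (chromosome 19, 48965309 to 48966879, plus strand) had 3644 and 4412 counts at 0 h and 7662 and 7050 counts in control cells. Its level was 353.4 ± 31.8 and then 664.6 ± 16.5 CPM, for a log2 fold change of 0.91 with a standard error of 0.05 (edgeR adjusted p = 1.69e-24). Both chains rose without overlap between groups, the heavy chain 9.67-fold and the light chain 1.89-fold. *NCOA4*, the receptor that takes ferritin to the lysosome (chromosome 10, 46005088 to 46030623, minus strand), had 1225 and 1790 counts at 0 h and 17649 and 16581 counts in control cells. It rose from 130.3 ± 5.58 to 1547 ± 15.6 CPM, which is 11.8-fold, a log2 fold change of 3.57 with a standard error of 0.05 (edgeR adjusted p = 1.08e-51). The genes for storing iron in ferritin and for releasing it from there were thus both called higher.

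The unequal rise of the ferritin chains moved their proportion, which does not depend on how libraries are scaled. *FTH1* held 39.8% of the ferritin counts in both 0 h libraries (Wilson 95% intervals 38.6% to 41.0% and 38.7% to 40.9%, counting error only). In control cells it held 76.9% and 77.5%, with intervals of 76.5% to 77.4% and 77.0% to 78.0%. After depletion it held 74.8% and 73.9%, with intervals of 74.3% to 75.3% and 73.4% to 74.4%. The ratio of *FTH1* to *FTL* counts was 0.661 in both 0 h libraries, 3.33 and 3.45 in control libraries and 2.96 and 2.83 in depleted libraries. Shares and ratios are of counts and are not corrected for length. The canonical transcript has 1203 bases for *FTH1* and 871 for *FTL*, so that the share of *FTH1* among ferritin transcripts is lower than these values. No groups overlapped. The share was 37.4 percentage points higher in control than in 0 h cells, and the share in depleted minus that in control cells was -2.88 percentage points; each exact permutation test gave p = 0.333, the smallest that 2 against 2 libraries allow.

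**Figure D2:**
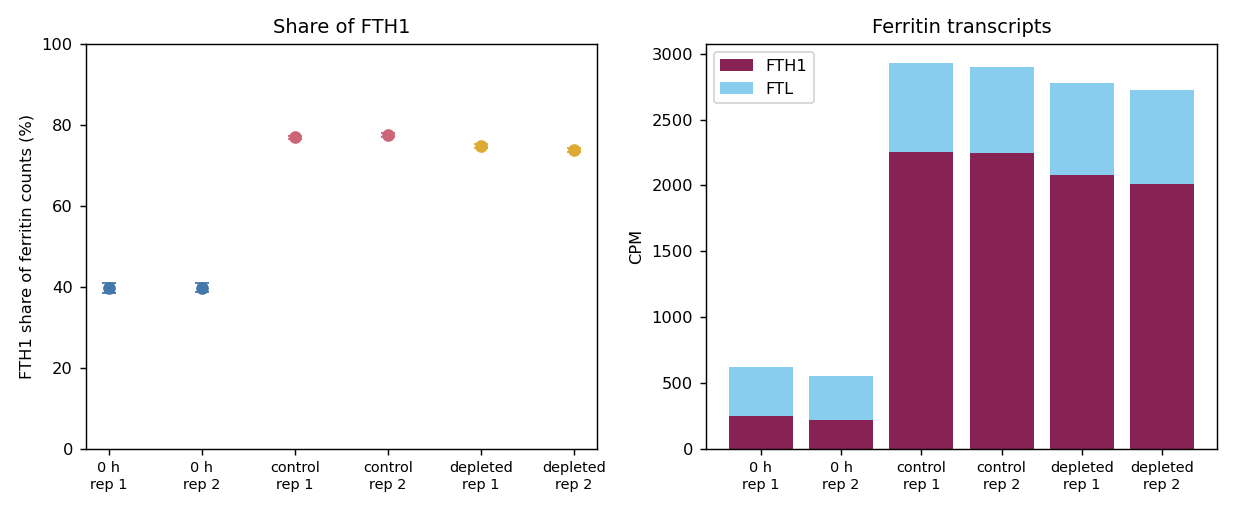
Left, share of *FTH1* in the sum of *FTH1* and *FTL* counts of each library in percent, with Wilson 95% intervals for counting error; right, the CPM of both genes stacked for each library. The share was 39.8% at 0 h and between 73.9% and 77.5% in the 4 libraries at 96 h, while the summed level went from 549.6 and 624.4 CPM at 0 h to between 2724 and 2929 CPM.

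Both ferritin genes share sequence with other annotated genes. GENCODE lists 25 pseudogenes for *FTH1* and 16 for *FTL*, of which 2 and 1 are listed in the count table, and 4 for *NCOA4*, none of which is. How reads that fit several of them were assigned is not given in the sources used here. *FTH1P3* had 33 and 53 counts at 0 h, 24 and 33 in control and 46 and 42 in depleted cells, and was not called in any comparison. With the pseudogene counts added to their genes, the difference in the share of *FTH1* between control and 0 h cells was 37.1 percentage points. *BEST1*, on the opposite strand, shares 1267 exon bases with *FTH1* and had 0 counts in both 0 h libraries, 129 and 108 in control and 194 in each depleted library. The library kit keeps the strand, but the strand setting of the counting is not given in the sources used here, so that the part of *BEST1* reads that comes from *FTH1* was not tested.

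For haem breakdown, *HMOX1* (chromosome 22, 35380361 to 35394214, plus strand) had 1 and 0 counts at 0 h and 594 and 530 counts in control cells. Its mean level at 96 h was 50.8 ± 2.36 CPM. The ratio to 0 h was 1170 with an exact 95% interval of 209.5 to 46240 for counting error, and the gene was called higher (edgeR adjusted p = 1.13e-37). The fitted log2 fold change was 9.86, but was 8.75 without replicate 2 and 12.17 without replicate 1 of the 0 h cells, so that its size rests on a single read at 0 h. For export, *SLC40A1* (chromosome 2, 189560590 to 189583758, minus strand) had 0 counts in the 0 h and control libraries and 1 count in each depleted library. A count of 3, taken as the limit that 0 allows, corresponds to 0.225 to 0.309 CPM in these libraries. With at most 1 count in any library, a difference in ferroportin RNA between the groups was not detectable at this depth, while the RNA of the haem-degrading enzyme was readily counted at 96 h.

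For the control of iron regulatory proteins, *FBXL5* (chromosome 4, 15604381 to 15681679, minus strand) had 456 and 709 counts at 0 h and 2278 and 2212 counts in control cells. It rose from 50.1 ± 4.34 to 202.9 ± 2.69 CPM, which is 4.03-fold, a log2 fold change of 2.01 with a standard error of 0.06 (edgeR adjusted p = 3.67e-36). *IREB2* (chromosome 15, 78437431 to 78501453, plus strand) had 1929 and 2717 counts at 0 h and 2232 and 2235 counts in control cells. Its levels, 201.4 ± 3.40 and 202 ± 7.06 CPM, overlapped between the groups, and the log2 fold change was 0.00 with a 95% interval of -0.10 to 0.10 (edgeR adjusted p = 0.955). Per kilobase, the level of *FBXL5* was therefore below that of *IREB2* at 0 h and above it in control cells.

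**Figure D3:**
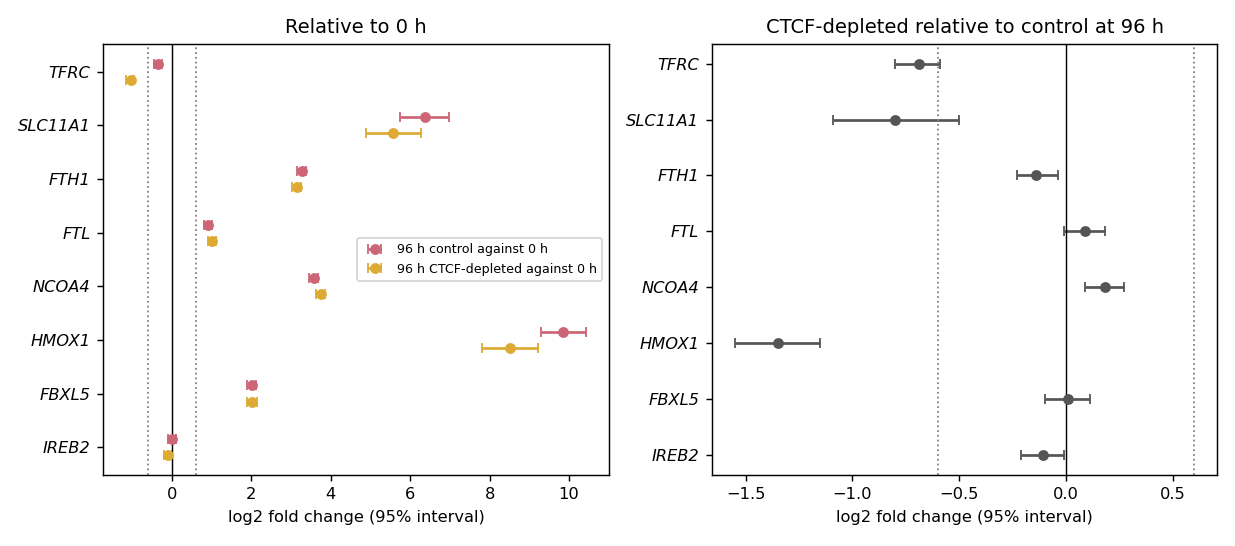
Log2 fold changes with 95% intervals from edgeR for the 8 genes tested; left, each 96 h group relative to 0 h, and right, depleted relative to control cells on an axis of its own, with dotted lines at the fold threshold of 0.6 in either direction. Relative to 0 h, 6 genes lie to the right of the threshold in both groups; relative to control, *HMOX1*, *SLC11A1* and *TFRC* lie to the left of it, the intervals of the last 2 reaching it.

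The second comparison, 96 h CTCF-depleted against 96 h control, asks how these genes differ between transdifferentiated cells that received IAA and those that did not. Of the 8 genes tested, 3 were called lower, where 7.03% of all genes tested were called lower: *HMOX1*, *TFRC* and *SLC11A1*. None was called higher, where 5.41% of all genes were; DESeq2 also called 0 higher, and at an unadjusted p below 0.05 without a fold threshold 1 gene, *NCOA4*, was higher and 5 were lower. The median log2 fold change of all genes tested was -0.03. The ferritin chains, *NCOA4*, *FBXL5* and *IREB2* stayed within the fold threshold.

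*HMOX1* was counted 594 and 530 times in control cells against 212 and 219 times in depleted cells. Its level was 50.8 ± 2.36 and 19.9 ± 0.385 CPM, with no overlap. The gene was 2.55-fold lower in depleted cells, a log2 fold change of -1.35 with a standard error of 0.10 and a 95% interval of -1.55 to -1.15 (edgeR adjusted p = 3.95e-17). Even so, it remained above 0 h, at a ratio of 458.3 with an exact 95% interval of 81.8 to 18140. *SLC11A1* gave 201 and 216 counts in control cells against 116 and 119 in depleted cells, or 18.9 ± 1.60 and 10.9 ± 0.157 CPM. It fell by 0.80 on the log2 scale with a standard error of 0.15 (edgeR adjusted p = 1.16e-05), and both depleted libraries were below both control libraries.

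*TFRC* gave 2819 and 2420 counts in control cells against 1523 and 1644 in depleted cells, or 236.5 ± 17.5 and 146.2 ± 7.37 CPM. It fell by 0.69 on the log2 scale with a standard error of 0.05 (edgeR adjusted p = 8.9e-17), again without overlap. Without replicate 1 of the control cells the log2 fold change was -0.58 (edgeR adjusted p = 1.43e-07), so that the call was lost at the fold threshold while the direction held. When the change was tested against the fold threshold itself with edgeR's glmTreat, *TFRC* (adjusted p = 0.142) and *SLC11A1* (adjusted p = 0.306) were not called, and *HMOX1* was (adjusted p = 3.88e-09).

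The remaining genes differed little. *FTH1* had 22458 and 21854 counts in depleted cells, or 2046 ± 46.8 CPM, and its log2 fold change was -0.14 with a 95% interval of -0.23 to -0.04 (edgeR adjusted p = 0.0184). *FTL* had 7583 and 7715 counts, or 706.4 ± 6.07 CPM, with a log2 fold change of 0.09 and an interval of -0.01 to 0.18 (edgeR adjusted p = 0.139). Both log2 fold changes were within the fold threshold, with opposite signs, and the interval of *FTL* included 0. Groups did not overlap for either chain, nor for *NCOA4* and *IREB2* below, but 2 against 2 libraries allow no permutation p under 0.333. *NCOA4* had 19057 and 19000 counts, or 1757 ± 10.1 CPM, with a log2 fold change of 0.18 and an interval of 0.09 to 0.27 (edgeR adjusted p = 0.000715), which is below the fold threshold. *FBXL5* had 2204 and 2211 counts, or 203.9 ± 0.280 CPM, which overlapped with control (log2 fold change 0.01, interval -0.10 to 0.11, edgeR adjusted p = 0.942). *IREB2* had 2019 and 2046 counts, or 187.7 ± 1.09 CPM, with a log2 fold change of -0.11 and an interval of -0.21 to -0.01 (edgeR adjusted p = 0.0886).

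Levels of macrophage markers were compared in the same libraries, since *HMOX1* and *SLC11A1* are both genes of the 96 h cells. The 12 macrophage markers summed to 6917 to 7147 CPM in control and 6316 to 6420 CPM in depleted cells, with 1 called higher and 2 called lower, and to 127.7 to 143.8 CPM at 0 h. The 12 B cell markers summed to 446.6 to 447.6 CPM in control and 389.5 to 401.6 CPM in depleted cells. The 7 granulocyte markers summed to 127.3 CPM in both control libraries and 94.2 to 102.8 CPM in depleted cells, and the 7 T and NK cell markers to 38.3 to 38.6 and 32.5 to 34.6 CPM, with *CD3D*, *CD3E*, *CD3G*, *CD8A* and *GNLY* at no more than 3 counts in every library. The part of these levels in the lower *HMOX1*, *SLC11A1* and *TFRC* counts was not tested.

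Against 0 h, CTCF-depleted cells at 96 h had the same 6 genes called higher, where 27.2% of all genes tested were, and *TFRC* called lower, where 25.2% were. This comparison shares its 0 h libraries with the first and its depleted libraries with the second, so that the values are given side by side only. The log2 fold changes in depleted and control cells were 3.14 and 3.27 for *FTH1*, 1.00 and 0.91 for *FTL*, 3.75 and 3.57 for *NCOA4* and 2.02 and 2.01 for *FBXL5*. *TFRC* was 2.06-fold lower than at 0 h (log2 fold change -1.04 with a standard error of 0.05, edgeR adjusted p = 5.54e-26). *SLC11A1* was at 49.98 times its 0 h level, with an exact 95% interval of 21.1 to 155.4 for counting error. *IREB2* had a log2 fold change of -0.10 (edgeR adjusted p = 0.0568).

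The 9 genes were set beside 72 other genes of iron and haem handling in 10 lists, of which 58 were tested. In control against 0 h cells 22 of these 58 were called higher and 6 lower, where 25.4% and 22.9% of all genes tested were, and their median log2 fold change was 0.12, beside 0.02 for all genes. Among the steps next to *HMOX1*, 4 of 5 haem uptake genes were higher and none was lower. *CD163*, the scavenger receptor for haemoglobin bound to haptoglobin, had 0 counts in both 0 h libraries, 592 and 574 in control and 733 and 651 in depleted cells. It passed the filter on low counts only through its levels at 96 h, and it is also 1 of the 12 macrophage markers. *BLVRB*, a biliverdin reductase, rose from 5.72 ± 0.664 to 19.0 ± 0.646 CPM (log2 fold change 1.74, edgeR adjusted p = 2.65e-15). *BLVRA*, the other biliverdin reductase of the lists, was at 4.3 ± 0.21 and 3.4 ± 1.03 CPM and was not called (log2 fold change -0.32, edgeR adjusted p = 0.28). *HMOX2*, the constitutive haem oxygenase, was at 26.9 ± 1.78 and 22.8 ± 0.966 CPM and was not called. Of the haem oxygenase genes, *HMOX1* alone was thus called in this comparison. Other lists rose less evenly. Of tested genes, 3 of 7 for uptake were higher and 1 lower, and none of 3 for storage or 1 for export was called. For iron regulatory protein control 2 of 9 were higher and 1 lower, and for mitochondrial iron 2 of 6 were higher and 1 lower. For haem breakdown 2 of 4 were higher, for systemic control 1 of 2, and none was lower. Of the 10 tested genes of transcriptional control, 6 were higher and *BACH2* was lower. *BACH1*, the haem-sensing repressor of *HMOX1*, rose from 89.2 ± 6.48 to 196.9 ± 2.67 CPM (log2 fold change 1.14, edgeR adjusted p = 1.59e-25), and *NFE2L2* (NRF2), its activator, from 51.3 ± 1.45 to 153.6 ± 1.58 CPM (log2 fold change 1.59, edgeR adjusted p = 3.74e-30).

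In CTCF-depleted against control cells, 4 of the 58 tested genes were called higher and 3 lower, with a median log2 fold change of 0.05, and these shares are near those of all genes. *ACO1*, which encodes the iron regulatory protein IRP1, had 350 and 391 counts in control and 120 in each depleted library. It fell by 1.60 on the log2 scale with a standard error of 0.11 (edgeR adjusted p = 9.04e-18), whereas *IREB2* was not called. In the mitochondrion, *SLC25A37* (mitoferrin 1, the iron importer) went from 457.5 ± 6.36 to 259.2 ± 8.06 CPM (log2 fold change -0.82, edgeR adjusted p = 5.38e-22). The other gene called lower, the haem transporter *SLC48A1*, had 181 and 150 counts in control and 97 and 106 in depleted cells (log2 fold change -0.67, edgeR adjusted p = 0.000357). Its call was lost without replicate 1 of the control cells (-0.53), without replicate 1 of the depleted cells (-0.57) and in DESeq2 (adjusted p = 0.0163).

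The 4 genes called higher were *SLC46A1*, *HMOX2*, *NR1H3* and *MAFF*. *HMOX2* went from 22.8 ± 0.966 to 35.6 ± 1.11 CPM (log2 fold change 0.65, edgeR adjusted p = 1.41e-07), opposite in direction to *HMOX1*. *SLC46A1*, a transporter of folate and haem, had 248 and 239 counts in control and 421 and 478 in depleted cells (log2 fold change 0.92, edgeR adjusted p = 3.32e-11). *NR1H3*, the sterol-sensing receptor LXRα, went from 7.63 ± 0.188 to 15.6 ± 0.448 CPM (log2 fold change 1.03, edgeR adjusted p = 3.98e-07). Tested against the fold threshold with edgeR's glmTreat, *HMOX2* (adjusted p = 0.903) and *NR1H3* (adjusted p = 0.0221) were not called. *MAFF* (log2 fold change 0.65, edgeR adjusted p = 0.0067) was not called by that test or in DESeq2 (adjusted p = 0.0973). Its log2 fold change was 0.41 without replicate 1 of the control cells and 0.59 without replicate 2 of the depleted cells, where the call was lost, and 0.99 without replicate 2 of the control cells. *BACH1* had a log2 fold change of 0.05 (edgeR adjusted p = 0.472) and *NFE2L2* one of -0.13 (edgeR adjusted p = 0.0725), and neither was called.

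**Figure D4:**
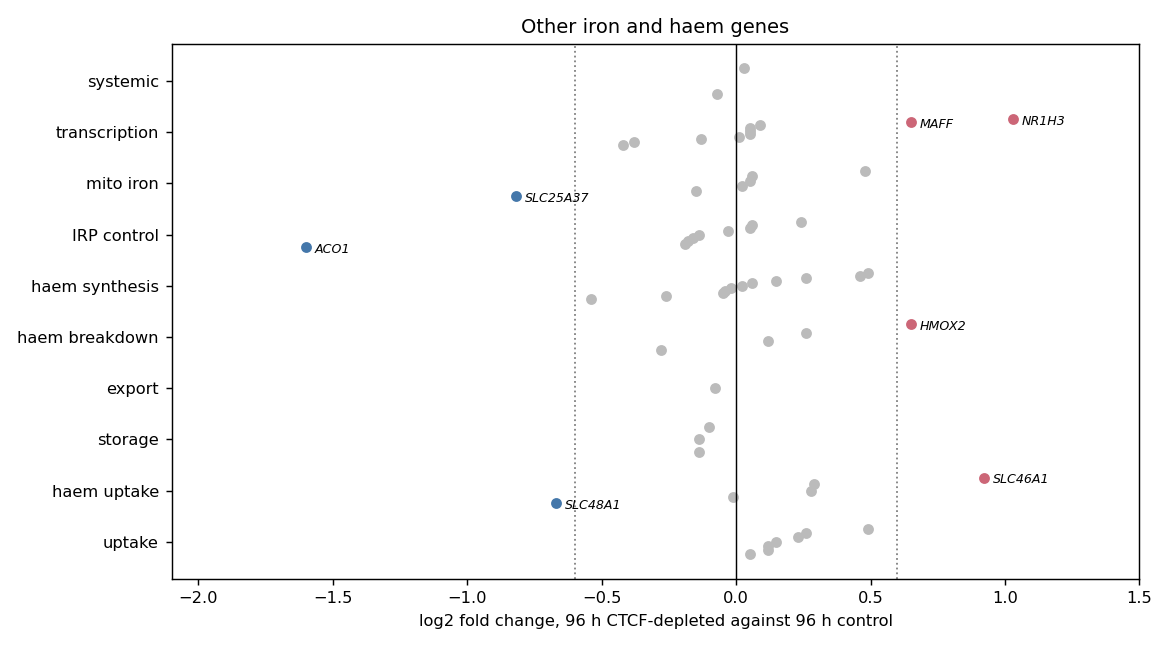
Log2 fold change of CTCF-depleted against control cells at 96 h for the 58 tested genes of the 10 other iron and haem lists, 1 point a gene and 1 band a list, with dotted lines at 0.6 in either direction. Grey points were not called; the 4 genes called higher and the 3 called lower are named, with *ACO1* farthest to the left.

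Promoter sequences from RefSeq (GRCh38.p14, 250 bases before to 50 after the start) were matched for 7 of the 9 genes, not for *FTH1* and *HMOX1*, with 2 starts each for *NCOA4* and *IREB2*. They were searched on both strands for TGACNNNGC, the core of the element bound by NRF2 and BACH1, for CACGTG, the E-box, and for TCACGTGA, a longer form of it, which overlaps with CACGTG wherever it occurs. Of 35116 promoters, 13.3% held TGACNNNGC, 7.26% CACGTG and 0.98% TCACGTGA. *FBXL5* held 1 TGACNNNGC and 1 CACGTG, which overlap, and 1 of the *NCOA4* starts held 1 TGACNNNGC. The promoters of *FTL*, *TFRC*, *SLC11A1*, *SLC40A1* and *IREB2* held none of these letters.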

How the data were processed

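RNA-seq libraries from total RNA depleted of ribosomal RNA were made with a stranded kit by the authors, 2 biological replicates in each of 3 conditions. The deposited values are raw counts per gene symbol. The methods of the study name the nf-core/rnaseq pipeline, STAR 2.6.1d on hg38 and featureCounts 2.0.6 over protein-coding exons. The count table also lists pseudogenes such as *FTH1P3*, so that its rows are not limited to protein-coding genes. The annotation release and the strand setting of the counting are not given in the sources used here.

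Testing used edgeR 4.0.16 (R 4.3.3): filterByExpr, TMM scaling, and a quasi-likelihood fit of all 6 libraries with group as the only term, with Benjamini-Hochberg adjustment over 14758 genes. The thresholds for calls are those of the study. The study used DESeq2, which is an alternative here (1.42.0), along with other scalings, filters, thresholds, a replicate block and leaving out libraries. The same-numbered replicates were not treated as pairs. CPM used TMM-scaled library sizes. Total counts of 9273470 to 12718780 set the precision. Intervals on counts cover counting error only, since the spread between libraries does not enter them. Whether reads carried molecular identifiers is not given in the sources used here. Scripts were tested on simulated data. Summaries used pandas 2.3.3, scipy 1.17.1 and numpy 2.4.6 under Python 3.11.15, with matplotlib 3.10.9 for plots. Positions and transcript sequences come from GENCODE release 44 (hg38).

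The 9 genes and the lists were chosen with earlier results of these data known. All 9 genes are named, with genes of the lists that passed the thresholds or act next to a member, *FTH1* pseudogenes, and the 3 genes closest in pattern to each member. *BEST1* was named for its overlap. Some results are not reported here.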

Additional observations from a re-analysis of the deposited data

How the results depend on the processing

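With the adjusted p alone, at 0.05 and with no fold threshold, 1 of the 9 genes was lower in control against 0 h cells. In CTCF-depleted against control cells 1 was then higher and 4 were lower. Of the other iron genes, 24 were higher and 25 lower in control against 0 h cells. In depleted against control cells 10 were higher and 10 lower, and in depleted against 0 h cells 24 were lower. Of all 14758 genes tested, 5612 were higher and 5500 lower in control against 0 h cells. In depleted against control cells 2375 of all genes were higher and 3330 lower. In depleted against control cells, 1 of the 9 genes was lower with at least 10 counts in every library, a filter that removes *HMOX1* and *SLC11A1*, and 1 with glmTreat, which called 1 of the other iron genes higher. With the replicate block, 6 genes were higher and 0 lower in control against 0 h, 0 and 3 in depleted against control, and 6 and 1 in depleted against 0 h cells, as without it; the replicates share only a number (correlations of their differences -0.0194, 0.0109 and -0.0294). *IREB2* in control against 0 h changed sign around 0, with -0.01 in DESeq2 and with RLE, -0.03 without a filter, -0.12 with total counts, and -0.03 to 0.00 with 1 library left out; total counts shifted the median of all genes by -0.12 there. Leaving out 1 library moved the share of *FTH1* in depleted against control cells between -3.30 and -2.45 percentage points. Where 1 library is left in a group, its spread is assumed to be that of the other groups. DESeq2, RLE and TMM gave the same counts of called genes among the 9. With 1 read at 0 h, depth limits any fold of *HMOX1* against those cells, and *SLC40A1* could not be tested.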

Other observations

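The genes most like each of the 8 tested genes were found by the root mean square difference of log2 CPM, each gene centred on its own mean, over the 6 libraries. This is a description, and the libraries share depth and group. For *FTH1* they were *SERPINB8* (0.031), *FMNL1* (0.039) and *VEGFA* (0.068), and for *FTL* *SNX17* (0.036), *SRGAP2C* (0.042) and *IPMK* (0.043). *NCOA4* was closest to *SLC30A1* (0.047), a zinc exporter, then *SESN3* (0.079) and *TLR4* (0.085). *SLC11A1* was closest to *TLR7* (0.098), a receptor for RNA in the endosome, *C1QC* (0.099), a chain of complement C1q, and *STX11* (0.129). *TFRC* was closest to *TTC24* (0.051), *UBE2E2* (0.056) and *KIF20B* (0.058), a mitotic kinesin. *HMOX1* stood farther from its closest genes, *ACKR3* (0.158), *KLF3* (0.214) and *CD300E* (0.22), and its centred values depend on the prior count used at 0 h. The same holds for *SLC11A1*, with 2 and 3 counts at 0 h, and for *C1QC*, with a mean of 0.0 CPM there. The fitted log2 fold changes of *SLC11A1* and *C1QC* in control against 0 h cells were 6.37 and 9.5. *FBXL5* was closest to *OSTF1* (0.036), *EPAS1* (0.042) and *LIMD2* (0.048), and *IREB2* to *TLK1* (0.018), *LSM14A* (0.019) and *DLST* (0.021).

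Of 11 tested genes of haem synthesis, 2 were called higher and 2 lower in control against 0 h cells, which is no larger a share than the 25.4% and 22.9% of all genes. *ALAS1*, its first step, went from 34.4 to 68.9 CPM (log2 fold change 1.01, edgeR adjusted p = 6.36e-17), and *FECH*, its last, from 29.9 to 16.5 CPM (log2 fold change -0.85, edgeR adjusted p = 1.68e-09). None of the 11 was called in CTCF-depleted against control cells, where the log2 fold change of *FECH* was -0.54 (edgeR adjusted p = 0.000756), within the fold threshold.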
